A study of Mus musculus with 6 samples.

Results

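The genes described here encode lysosomal enzymes, lysosomal membrane proteins and a few of their regulators. They are 32 named mouse genes, matched by symbol to the deposited comparison table and by identifier to the 49315 genes of the count files, and all 32 were among the 23989 genes tested. The set is defined by function and no measured value enters its rule, but its genes were chosen with earlier results of these data known. RNA came from endothelial cells of 4T1 tumours, which arise from a transplantable mouse mammary carcinoma line. Female Balb/c mice aged 8 weeks received 4T1 cells in the mammary fat pad, and tumours were taken 2 weeks later, at 10 weeks of age. Both groups came from treated mice: 1 hour before harvest each animal was given 1e+12 gold particles of 50 nm by tail vein, coated with 5 kDa polyethylene glycol and labelled with Cy5. Magnetic depletion of CD45+ cells and selection of CD31+ cells preceded the flow sort into a nanoparticle-positive (NP+) and a nanoparticle-negative (NP-) fraction. Each fraction has 3 libraries, 1 for each tumour (MET-106, MET-107, MET-108), so n = 3 throughout and NP+ and NP- share their tumours. No library from mice without particles was analysed here. Where 3 values are listed for a group below, they follow the tumour order MET-106, MET-107, MET-108.

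Lysosomes are acidic compartments that receive material from endocytosis and autophagy and degrade it. A proton-pumping V-ATPase keeps them acidic, soluble hydrolases cut protein, glycan and lipid cargo, and heavily glycosylated membrane proteins line the inside of the membrane. Mcoln1 is a calcium channel of that membrane, and Tfeb is a transcription factor that drives many lysosomal genes through a short promoter element containing the letters CACGTG. Endothelial cells take up circulating particles by several endocytic routes, many of which deliver cargo to lysosomes.

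Libraries held 41830256 to 58089600 gene counts in NP+ and 20856410 to 44694267 in NP-, and the smallest count of any of the 32 genes in any library was 90. The sorted cells carried endothelial RNA: the 10 endothelial markers (Pecam1, Cdh5, Kdr and others) summed to 12451, 10632 and 11622 CPM (counts scaled to a common library size) in NP+ and 7134, 8784 and 9984 CPM in NP-. With TMM scaling, all 10 had a log2 fold change above 0 and the sums did not overlap, and their part in the lysosomal values was not tested. The NP- library of MET-106 stood apart in markers of other cell types. Its fibroblast markers summed to 3839 CPM against 15.5 to 142 CPM in the other libraries, its mural cell markers to 749 against 20.6 to 210.1 CPM, and its epithelial and 4T1 markers to 575 against 9.005 to 31.4 CPM. All of these sums were higher in every NP- library than in any NP+ library. In MET-107 and MET-108, NP- fibroblast sums were 142 and 64.0 CPM, against 57.9, 42.4 and 15.5 in the NP+ libraries. Mural sums there were 210.1 and 76.0 against 62.0, 48.7 and 20.6 CPM, and epithelial sums 31.4 and 15.9 against at most 13.3 CPM. Lymphatic endothelial markers were highest in the NP- library of MET-107, at 990 against 170.3 to 415 CPM elsewhere. In bulk samples such as these, fewer cells of a type and less RNA per cell cannot be told apart. The part of these cell types in the lysosomal values was not tested. Values given below without a library leave out all RNA of that library and cannot test that part.

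RefSeq promoter windows (GRCm38.p6, from 250 bases before to 50 after a start) were found for 27 of the 32 genes. They are shown because Tfeb recognises CACGTG, and stretches are printed only for some of the genes that carry it. In the stretches that follow, written 5′ to 3′ on the gene's strand, capitals mark TCACGTGA where it is whole and CACGTG elsewhere. Both motifs read the same on either strand, and the longer one contains the shorter. The stretches of Ctsd and Ctsa lie within transcribed sequence of the annotation throughout, all 30 bases of each.
Mcoln1, chr8:3500418-3500480, plus strand: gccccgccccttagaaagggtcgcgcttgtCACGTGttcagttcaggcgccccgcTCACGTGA
Gaa, chr11:119267793-119267848, plus strand: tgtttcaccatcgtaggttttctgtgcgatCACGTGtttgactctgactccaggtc
Ctsd, chr7:142387908-142387937, minus strand: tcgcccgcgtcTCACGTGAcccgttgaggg
Ctsa, chr2:164833758-164833787, plus strand: tgTCACGTGAtgcagatgcTCACGTGAcca
Atp6v0d1, chr8:105566053-105566097, minus strand: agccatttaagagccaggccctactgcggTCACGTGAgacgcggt
Lamp1, chr8:13159070-13159171, plus strand: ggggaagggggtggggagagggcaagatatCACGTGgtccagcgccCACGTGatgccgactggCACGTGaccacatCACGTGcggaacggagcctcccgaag

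CACGTG was present in the windows of 10 of the 27 genes (37.04%): Atp6v0d1, Ctsa, Ctsd, Ctsl, Gaa, Gla, Glb1, Lamp1, Lgmn and Mcoln1. Among all 27025 genes with a window, 8.093% held it. The longer TCACGTGA was in 5 of the 27 (18.52%), namely Atp6v0d1, Ctsa, Ctsd, Gla and Mcoln1, against 1.125% of all genes. A match is only a run of letters in this window and does not show binding. Counted by windows, as some genes have several, 31.25% of the members' windows held CACGTG against 7.15% of all 32851 windows of that length, and 15.62% against 0.974% held TCACGTGA. The windows of Tfeb, Grn, Neu1 and Hexa held neither. Carrying the motif did not separate the genes by direction: the 10 carriers had log2 fold changes (NP+ over NP-) from -0.22 to 1.27, with a median of 0.39, and the 17 without it ranged from -1.15 to 0.99, with a median of 0.31.

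Tumour endothelial cells of both fractions transcribed lysosomal genes abundantly. Per kilobase of exon, 20 of the 32 lay above the 90th percentile of all tested genes and 8 above the 98th. Highest were the cysteine protease gene Ctsl at 479 CPM per kb, the membrane protein genes Laptm4a at 343 and Cd63 at 329.5, Psap at 324 and Ctsb at 314, as means of both fractions. Below Ctsl the order differed by fraction: Ctsb at 358 and Psap at 355 led in NP+, and Cd63 at 357 in NP-, where the library of MET-106 alone held 505 CPM per kb. Ctsc at 1.55, Tfeb at 2.18 and Npc1 at 2.27 CPM per kb were the lowest, between the 52.6th and 58.5th percentile. Together the 32 genes made up 0.861, 0.852 and 0.852% of counts in NP+ and 0.879, 0.808 and 0.882% in NP-, ranges that overlap.

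The summed level differed between fractions on one scale and not on another. With edgeR's TMM scaling, whose factors were 0.871 to 0.947 in NP+ and 1.07 to 1.16 in NP-, the 32 genes summed to 9883, 9017 and 9597 CPM in NP+ compared with 8206, 7005 and 8131 in NP-. Those groups do not overlap, and their means stood in a ratio of 1.22. With total counts the ratio was 0.998. All CPM below use TMM, and a log2 fold change is that of NP+ over NP- from edgeR's quasi-likelihood test.

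None of the 32 genes passed an adjusted p of 0.05 in edgeR in either direction, where 0.0125% of all tested genes were called higher in NP+ and 0.0167% lower. At an unadjusted p under 0.05, 10 were higher in NP+ against 8.01% of all genes, and 0 were lower against 15.4%. Some of the 10 lay close to that cut in edgeR: Atp6v1h at 0.049996, Ctsa and Tfeb at 0.0494, and Ctsb at 0.0473. Limma-voom also called 0 at the adjusted threshold. DESeq2 called 1, Mcoln1 (adjusted p = 0.0198), where 3.96% of all genes were called higher, and 0 lower, where 9.81% were. In the authors' deposited table Mcoln1 was likewise the 1 member under 0.05 and higher in NP+, where 3.71% of genes were called higher and 9.45% lower.

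Most members leaned toward NP+, as did other well expressed genes. The log2 fold change was above 0 in 27 of 32, and 21 (65.6%) were higher in NP+ within each of the 3 tumours, against 20% of all tested genes and 40.4% of tested genes with at least 5 CPM in 3 libraries. Their median was 0.33, beside -0.29 for all tested genes. Among the 10717 tested genes with at least 5 CPM in 3 libraries, the median in the same fit was 0.25, 74.4% were above 0, and 17.7% were higher at an unadjusted p under 0.05. With total-count scaling the median of the members was 0.04 and that of all genes -0.59. Values of all 6 libraries did not overlap between fractions for 18 members, 17 higher in NP+ (13.3% of all genes) and 1 lower (15.6%), as the plot of values by library shows.

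**Figure D1:**
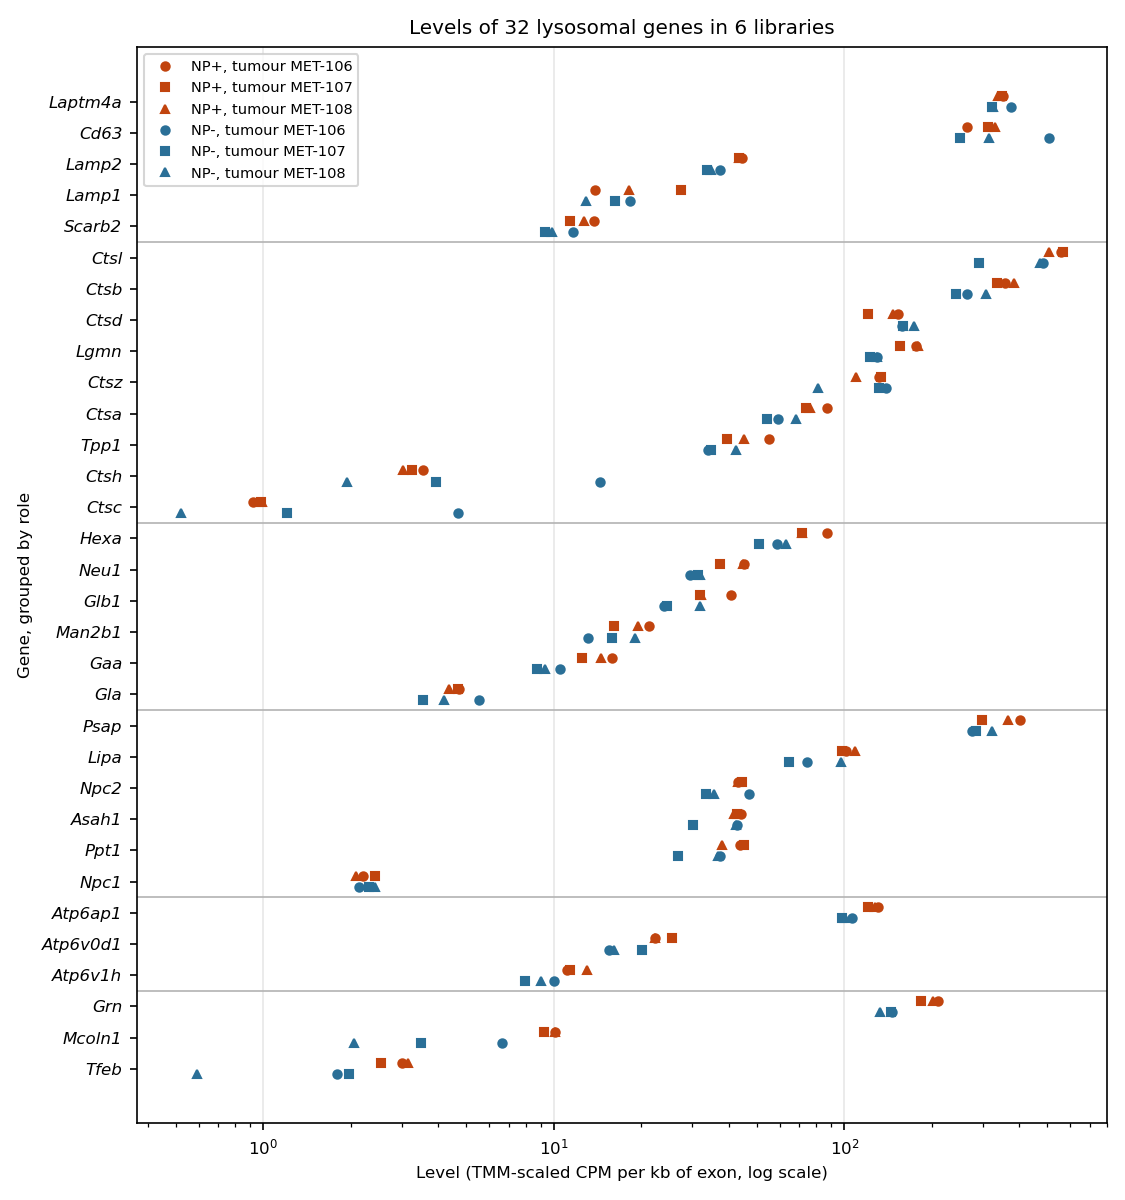
Level of each of the 32 genes in TMM-scaled CPM per kb of exon (x, log axis), grouped by role and ordered by level within a role, with 1 point per library coloured by fraction and shaped by tumour. Ctsl, with a mean of 479 CPM per kb, is the highest, the 3 NP+ points of Mcoln1 lie together above its scattered NP- points, and Ctsd shows the opposite order.

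Mcoln1 (chr8:3500457-3515232, plus strand, GRCm38, protein-coding) had the smallest p of the 32. It encodes mucolipin 1, the channel that releases calcium from lysosomes, and its loss causes mucolipidosis type IV. Levels were 76.1, 70.1 and 76.1 CPM in NP+ against 50.2, 26.3 and 15.5 in NP-, or 74.1 ± 3.46 against 30.7 ± 17.7 CPM (SD, n = 3). The NP+ libraries lay close together and above every NP- library, and the spread sat within NP-. That is a 2.42-fold ratio of means and a log2 fold change of 1.27 (SE 0.37), with an unadjusted p of 0.00828 and an adjusted p of 0.138 in edgeR. Leaving out the NP- library of MET-106 gave a ratio of 3.54 and an adjusted p of 0.0183, and Mcoln1 was then the 1 member called higher (3.48% of all genes). Over the 18 alternatives its log2 fold change stayed above 0, from 0.97 to 2.00, with adjusted p from 0.0183 to 0.413. The authors' deposited table gives it a log2 fold change of 1.32 and an adjusted p of 0.0199.

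Tfeb (chr17:47737030-47792419, plus strand), the transcription factor that calcium from mucolipin 1 is known to help activate, was a scarce transcript. NP+ libraries held 17.0, 14.4 and 17.9 CPM and NP- libraries 10.2, 11.2 and 3.36 CPM. Every NP+ value was above every NP- value, and the lowest, in MET-108, was far below the other NP- values. The means were 16.4 ± 1.79 and 8.25 ± 4.26 CPM, a ratio of 1.99 and a log2 fold change of 0.99 (SE 0.44), with an unadjusted p of 0.0494 and an adjusted p of 0.213 in edgeR. Without the NP- library of MET-108 the log2 fold change was 0.65. Activity of this factor is controlled largely by where the protein resides, which these data do not measure.

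Grn (chr11:102430315-102437048, plus strand) encodes progranulin, a secreted protein that is carried to lysosomes and cut there into granulins. It stood at 731, 637 and 704 CPM in NP+ compared with 508, 501 and 462 in NP-, again without overlap. The means of 691 ± 48.6 and 490.4 ± 24.7 CPM give a ratio of 1.41 and a log2 fold change of 0.49 (SE 0.16), with an adjusted p of 0.145. Mcoln1, Tfeb and Grn formed 1 of the 6 roles, a mixed group of channel, transcription factor and progranulin. It was made, as were all lists, with earlier results of these data known, and its median log2 fold change of 0.99 is that of Tfeb.

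Glycosidases, which trim sugars from glycoproteins, glycolipids and glycogen, all had a log2 fold change above 0 (6 of 6, median 0.40). Man2b1 and Gla lay below 0 with total-count scaling. An unadjusted p under 0.05 was reached by 3, against 8.01% of all tested genes and 17.7% of those with at least 5 CPM in 3 libraries. Of the latter, 74.4% were above 0, with a median of 0.25. With the tumour as a replicate block, only Gaa of the glycosidases stayed under 0.05. Gaa (chr11:119267887-119285454, plus strand), the acid alpha-glucosidase that breaks down glycogen and is deficient in Pompe disease, stood at 75.9, 60.0 and 69.8 CPM in NP+ against 50.4, 41.8 and 44.6 in NP-. The groups did not overlap, with means of 68.6 ± 8.02 and 45.6 ± 4.40 CPM. Its log2 fold change was 0.59 (SE 0.18), with an unadjusted p of 0.0115 and an adjusted p of 0.145. Neu1, the sialidase that works in a complex with Ctsa and Glb1, held 168, 139 and 167 CPM in NP+ compared with 109.5, 117 and 119 in NP- (log2 fold change 0.46, SE 0.16, adjusted p = 0.165).
Hexa, the alpha subunit of the ganglioside-cleaving hexosaminidase, held 173, 143 and 143 CPM in NP+ against 117, 102 and 126 in NP- (log2 fold change 0.41, SE 0.17, adjusted p = 0.202). Glb1, the beta-galactosidase, held 122, 95.6 and 96.3 CPM against 72.3, 73.5 and 95.5 CPM (log2 fold change 0.38, SE 0.19, adjusted p = 0.265). Each of these enzymes had its lowest NP+ library above its highest NP- library, for Glb1 by under 1 CPM. The alpha-mannosidase gene Man2b1 averaged 152 ± 21.2 against 129 ± 23.7 CPM and the alpha-galactosidase gene Gla 15.0 ± 0.659 against 14.4 ± 3.28 CPM, with overlapping libraries. The log2 fold change of Gla was 0.05 (SE 0.27).

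Peptidases had the largest summed CPM of the 6 roles, not divided by length, at 4306 ± 183 CPM in NP+ against 3468 ± 386 in NP- for 9 genes, but their directions differed. Ctsb (chr14:63122462-63145919, plus strand), a cysteine cathepsin, held 1689, 1585 and 1814 CPM in NP+ compared with 1252, 1146 and 1455 in NP-. Its groups did not overlap, and the log2 fold change was 0.40 (SE 0.17) with an adjusted p of 0.209. Lgmn, the asparagine-specific protease that processes cathepsins, stood at 409.5, 359.9 and 417 CPM against 299.9, 285 and 299.7 CPM (log2 fold change 0.42, SE 0.16, adjusted p = 0.170). Ctsa, the carboxypeptidase that protects Neu1 and Glb1, stood at 412, 347 and 360.3 CPM against 279, 255 and 321 CPM (log2 fold change 0.39, SE 0.17, adjusted p = 0.213). These 3 lay higher in every NP+ library than in any NP- library.
Ctsl (chr13:64363214-64370306, minus strand), the most abundant member per kilobase, stood at 1099.5, 1114 and 1000.5 CPM in NP+ against 951, 574 and 926 in NP-. It too did not overlap, but its NP- libraries differed widely (817 ± 211 CPM), and the log2 fold change of 0.39 (SE 0.22) had an adjusted p of 0.300. Tpp1, a tripeptidyl peptidase lost in a childhood ceroid lipofuscinosis, averaged 241 ± 41.0 against 191 ± 23.9 CPM, and Ctsz 179.5 ± 19.1 against 169 ± 45.5 CPM, both with overlap.

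Ctsd ran the other way. Ctsd (chr7:142375911-142388038, minus strand) encodes cathepsin D, the main aspartic protease of lysosomes, and stood at 359.7, 284 and 347 CPM in NP+ compared with 370.3, 376 and 407 in NP-. It was the 1 member whose NP+ values were all below its NP- values, and each tumour showed that order. Means were 330.1 ± 40.5 and 384 ± 19.6 CPM, a ratio of 0.859, and the log2 fold change of -0.22 (SE 0.17) did not pass, with an unadjusted p of 0.225 and an adjusted p of 0.430 in edgeR. Its log2 fold change was below 0 in all 18 alternatives, from -0.52 to -0.02. The authors' deposited table lists -0.14, with an adjusted p of 0.681.

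**Figure D2:**
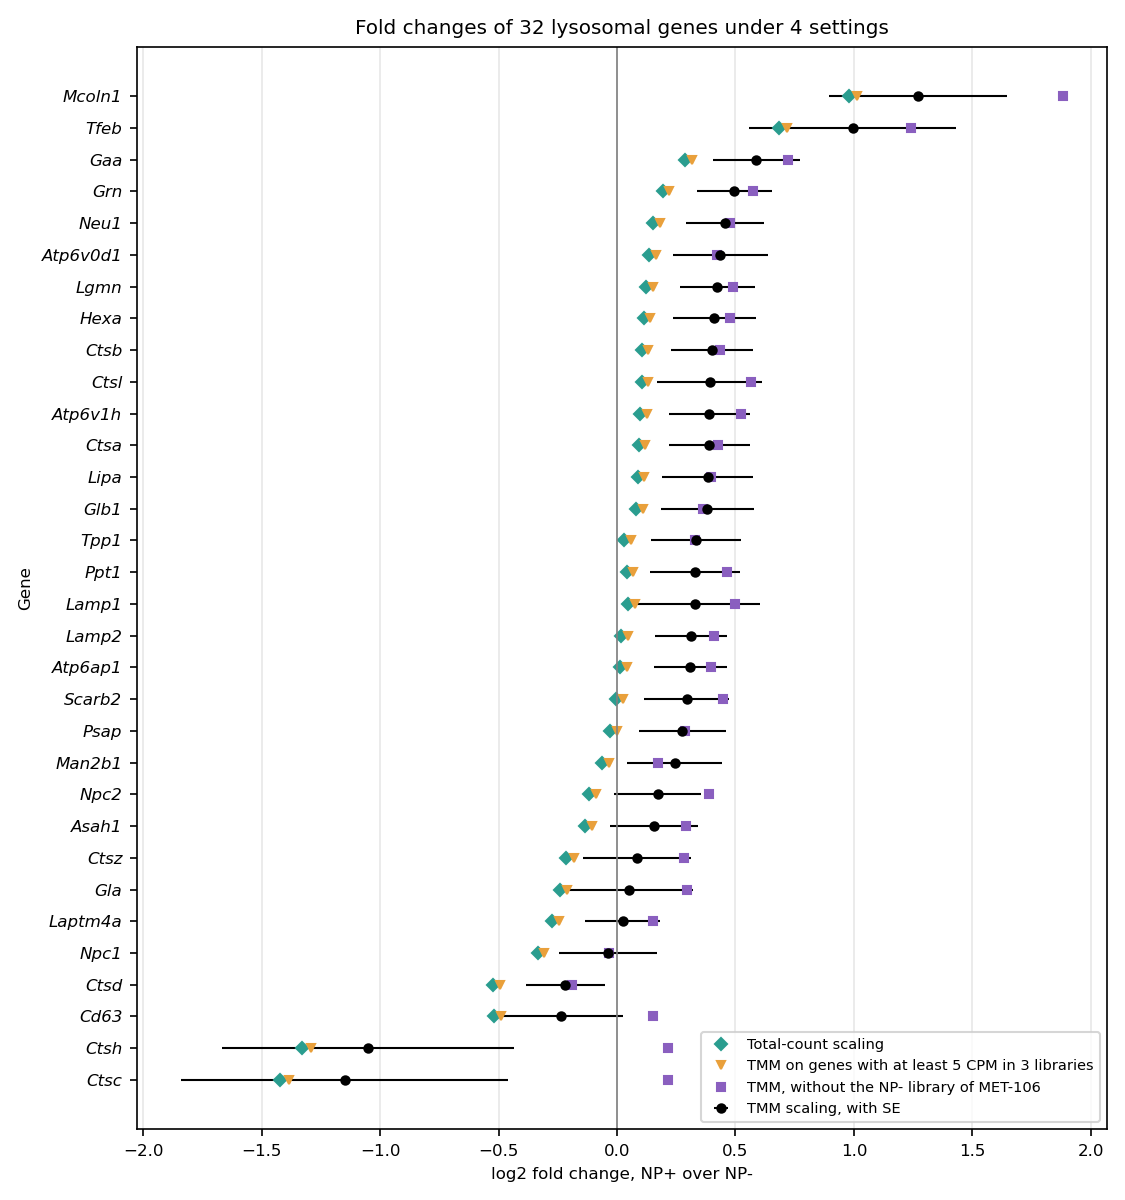
Log2 fold change of NP+ over NP- (x) for the 32 genes, ordered by the TMM value, whose bars are standard errors from edgeR, beside the values with total-count scaling, with genes of at least 5 CPM in 3 libraries, and without the NP- library of MET-106. Mcoln1 (1.27 with TMM) and Tfeb (0.99) stay right of 0 in all 4 settings and Ctsd (-0.22) left of it, while Ctsh, Ctsc and Cd63 cross 0 without that library.

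Ctsh and Ctsc were highest in 1 NP- library. Ctsh, an aminopeptidase, stood at 15.9, 14.6 and 13.6 CPM in NP+ against 64.8, 17.7 and 8.71 in NP-, and Ctsc, the dipeptidyl peptidase that activates granule serine proteases, at 5.35, 5.70 and 5.74 CPM against 27.1, 7.03 and 3.03 CPM. Both were highest in the NP- library of MET-106, the one richest in fibroblast, mural and epithelial markers. Log2 fold changes were -1.05 (SE 0.62) for Ctsh and -1.15 (SE 0.69) for Ctsc. Without that library the ratio of means was 1.11 for each. Cd63, a tetraspanin of late endosomes, shared the pattern: 273, 322 and 341 CPM in NP+ compared with 521, 257 and 325 in NP-, with a log2 fold change of -0.24 (SE 0.26, adjusted p = 0.581) and a ratio of 1.07 without it. The median log2 fold change over macrophage markers was -1.50. At an unadjusted p under 0.05, 8 of the 16 were lower in NP+ and 1 higher, against 15.4% and 8.01% of all tested genes. The 1 higher was Cd14, and the other 15 summed to 31.98, 36.04 and 24.3 CPM in NP+ against 149.8, 116 and 51.5 in NP-, without overlap and highest in the NP- library of MET-106. Of the 16 macrophage markers, only C1qa was under 1 CPM in all 6 libraries. Lymphocyte markers ran from 3.26 to 3.87 CPM in NP+ and were 32.5, 17.0 and 7.97 CPM in NP-. Neutrophil markers ran from 4.20 to 6.55 CPM in NP+ and were 22.5, 88.4 and 7.23 CPM in NP-, so their peak was in MET-107.

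**Figure D3:**
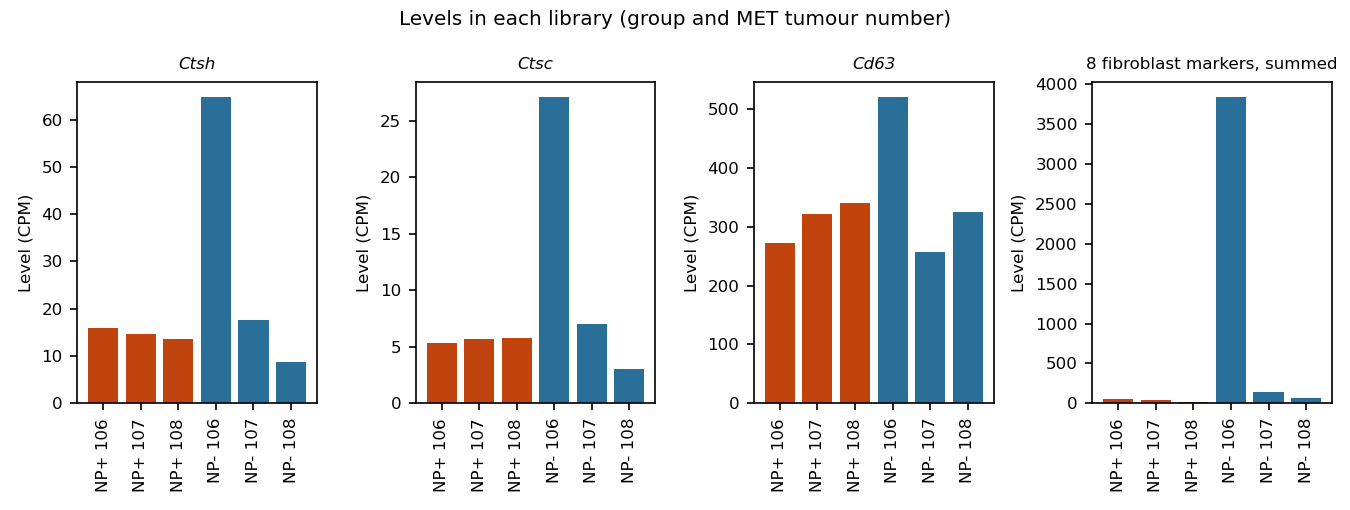
Level in TMM-scaled CPM (y, from 0, a separate scale per panel) of Ctsh, Ctsc, Cd63 and the sum of 8 fibroblast markers, with 1 bar per library coloured by fraction. The NP- library of MET-106 has the tallest bar in each panel, at 64.8 CPM for Ctsh, 27.1 for Ctsc, 521 for Cd63 and 3839 for the markers.

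Of the membrane proteins apart from Cd63, Lamp1, Lamp2 and Scarb2 had log2 fold changes near the members' median, and Laptm4a one near 0. Lamp2, which also serves chaperone-mediated autophagy, held 425, 415 and 414 CPM in NP+ compared with 356, 322 and 332 in NP-, without overlap (log2 fold change 0.31, SE 0.15, adjusted p = 0.248). Lamp1, its close relative, held 37.1, 73.3 and 48.7 CPM against 48.8, 43.3 and 34.6 CPM, with overlap (log2 fold change 0.33, SE 0.27, adjusted p = 0.470). Lamp1 shares its locus with Grtp1 on the other strand, and these libraries do not mark strand, so its counts are uncertain. In all, 13 of the 32 overlap another annotated gene, among them Ctsa, Ctsb, Ctsd, Grn, Hexa, Glb1, Ppt1 and Atp6v1h. Per kilobase Lamp2 stood at 39.5 and Lamp1 at 17.8 CPM. Laptm4a, a small membrane protein of late endosomes and lysosomes, held 621, 618 and 599 CPM against 664, 569.6 and 575 CPM, and its ratio was 1.02. Scarb2, the receptor that carries glucocerebrosidase to lysosomes, averaged 79.2 ± 7.35 against 64.6 ± 7.73 CPM with overlap. Summed, the 5 membrane genes gave the smallest ratio of the 6 roles, at 1.04.

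Proton pump members were higher in NP+ in each of the 3 tumours. Atp6v1h, a subunit of the ATP-cleaving sector, held 108.3, 111 and 126 CPM in NP+ against 97.5, 77.7 and 88.3 in NP- (log2 fold change 0.39, SE 0.17, adjusted p = 0.214). Atp6v0d1, in the stalk that joins the membrane sector, held 39.9, 45.8 and 40.0 CPM against 27.8, 36.1 and 29.0 CPM (log2 fold change 0.44, SE 0.20, adjusted p = 0.230). Atp6ap1, an accessory protein of pump assembly, held 394, 365 and 386 CPM against 322, 297 and 304 CPM (log2 fold change 0.31, SE 0.15, adjusted p = 0.251). No pair of groups overlapped, and the sum of the 3 genes was 539 ± 15.9 against 427 ± 19.0 CPM. Of 19 further V-ATPase genes tested, 12 had a log2 fold change above 0, with a median of 0.07, and 2 were higher and 3 lower at an unadjusted p under 0.05, shares near those of all tested genes (8.01% and 15.4%). With the replicate block 1 was higher and 3 lower.

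Lipid handling members gave 0 of 6 genes at an unadjusted p under 0.05, where 8.01% of all tested genes were higher and 15.4% lower. Lipa, the acid lipase that frees cholesterol and fatty acids from lipoprotein lipids, held 301, 291 and 324 CPM in NP+ compared with 221, 192 and 289 in NP-. The groups did not overlap, although 291 and 289 CPM lie close, and the log2 fold change was 0.38 (SE 0.19, adjusted p = 0.258). Ppt1, which removes palmitate from proteins, held 161, 166 and 139 CPM against 137, 98.2 and 135 CPM (log2 fold change 0.33, SE 0.19, adjusted p = 0.307), also without overlap. Psap, the precursor of the saposins that present lipids to hydrolases, averaged 975 ± 149 against 805 ± 68.9 CPM and overlapped. The acid ceramidase gene Asah1 averaged 145 ± 4.05 against 130.4 ± 24.2 CPM. Both cholesterol exporters overlapped between fractions: Npc2 averaged 142 ± 2.54 against 126 ± 23.6 CPM and Npc1 24.0 ± 1.85 against 24.7 ± 1.56 CPM.

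Because cells of both fractions came from the same tumours, the comparison was also made as a paired one, with the tumour as a replicate block. Members higher at an unadjusted p under 0.05 then numbered 4 rather than 10 (7.85% of all genes), and 0 were lower (14.6%). They were Mcoln1 (adjusted p = 0.104 in edgeR's model with the block), Gaa (adjusted p = 0.170), Grn (adjusted p = 0.192) and Tfeb (adjusted p = 0.206). Within each tumour all 4 stood higher in NP+.

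**Figure D4:**
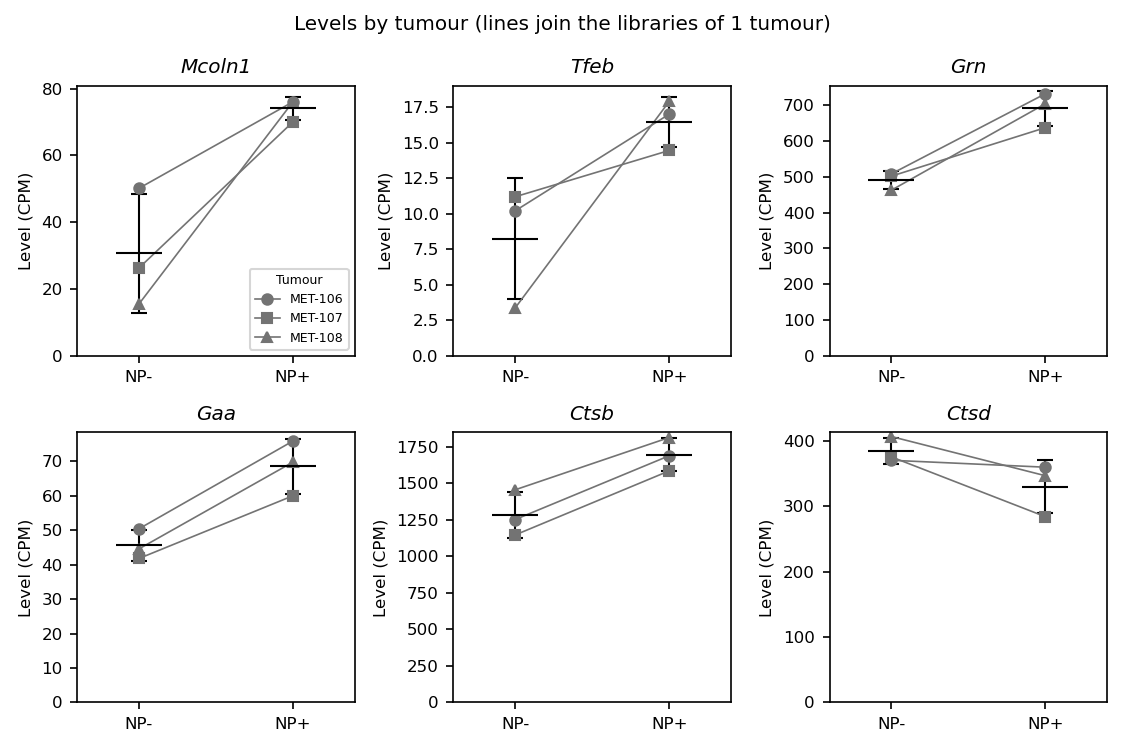
Level in TMM-scaled CPM (y, from 0) of Mcoln1, Tfeb, Grn, Gaa, Ctsb and Ctsd in the NP- and NP+ library of each tumour, joined by a line per tumour, with the group mean and SD in black. All 3 lines go up from NP- to NP+ for the first 5 genes and down for Ctsd.

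Which members stand apart from the rest depended on the scale. When each gene was taken as a percent of the members' own summed counts, which removes library scaling, 3 genes were higher in NP+ without overlap (4.98% of all genes) and 3 lower (22.2%). Mcoln1 made up 0.770, 0.777 and 0.793% of that sum in NP+ and 0.611, 0.376 and 0.191% in NP-. Gaa made up 0.768, 0.666 and 0.727% against 0.614, 0.596 and 0.548%. Tfeb was the third, at 0.172, 0.1602 and 0.186% against 0.124, 0.1596 and 0.0414%, so its groups nearly met. Ctsd made up 3.64, 3.15 and 3.61% in NP+ and 4.51, 5.36 and 5.00% in NP-, and it was joined by Cd63 and Laptm4a. With total-count scaling, Mcoln1 was the 1 member higher at an unadjusted p under 0.05 (2.54% of all genes) and Ctsd the 1 lower (21%). The same pair was left after a filter to genes reaching 5 CPM in 3 libraries, against 6.44% of genes higher and 8.75% lower. In these scalings the other members ceased to pass, and 12 of 32 changed sign in at least 1 of the 18 alternatives, while 19 stayed above 0 and Ctsd alone stayed below.

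The NP- library of MET-106, which stood apart in markers, bore on the counts as well. Over all tested genes it was the NP- library closest to NP+, with Pearson correlations of 0.964 to 0.968 with the NP+ libraries. Those of MET-107 gave 0.919 to 0.929 and those of MET-108 0.905 to 0.912. Over the members it was the furthest, at 0.937 to 0.944 against 0.972 to 0.983. Without the NP- library of MET-106, members higher at an unadjusted p under 0.05 numbered 14 (12.3% of all genes), among them Lamp2, Ctsl, Npc2 and Scarb2. Without MET-106 in NP+, or without MET-108 in NP+, Mcoln1 was the 1 left, near the shares of all genes (3.91% and 3.89%), and without MET-107 in NP+ there were 5 (6.11% of all genes). Leaving out both libraries of MET-107 left Gaa, Grn and Neu1 but not Mcoln1 (4.81% of all genes). Spread was larger in NP-: the median coefficient of variation of the 32 genes was 8.29% in NP+ and 13.5% in NP-, and 22 of 32 varied more in NP-. Genes with at least 5 CPM in 3 libraries had 11.8% and 26.0%, and 83% of them varied more in NP-. Reads were fewer in 2 of the NP- libraries than in any NP+ library, and the part of depth in that spread was not tested.

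Lysosomal genes outside the 32 were taken from 8 further lists with 128 genes, of which 122 were tested. None passed an adjusted p of 0.05 in edgeR or limma-voom. DESeq2 called 7 of the 122 higher, among them Ap1g1, Arsa, Atp6v0a2, Hgsnat, Plbd2 and Rptor. It called 10 lower: Acp5, Atp6v0a4, Atp6v0d2, Atp6v1c2, Ctse, Ctsk, Mcoln2, Mcoln3, Rragd and Sort1. Among all tested genes DESeq2 called 3.96% higher and 9.81% lower. At an unadjusted p under 0.05, 21 (17.2%) were higher in NP+ and 14 (11.5%) lower, against 8.01% and 15.4% of all tested genes, and against 17.7% and 4.18% of those with at least 5 CPM in 3 libraries. Further glycosidases and sulfatases leaned toward NP+, with 6 of 20 higher, 0 lower and a median log2 fold change of 0.31. With the tumour as a replicate block 5 were higher and 0 lower, and Gusb was not among them. Arsa, the sulfatide-cleaving arylsulfatase, averaged 233 ± 30.7 CPM in NP+ against 148 ± 12.3 in NP- (log2 fold change 0.65, adjusted p = 0.126), Hgsnat, the acetyltransferase of heparan sulfate breakdown, 39.3 ± 3.30 against 15.3 ± 11.2 CPM, and Gusb, the beta-glucuronidase, 157 ± 15.3 against 115 ± 15.0 CPM. None of these 3 overlapped between fractions.

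At an unadjusted p under 0.05, lipid hydrolases and cofactors had 3 of 11 higher and 1 lower (median 0.33). For each list in this paragraph, the shares of all tested genes were 8.01% higher and 15.4% lower. Among tested genes with at least 5 CPM in 3 libraries they were 17.7% and 4.18%, with a median log2 fold change of 0.25. Plbd2, a lysosomal phospholipase-like protein, averaged 88.8 ± 10.4 against 28.7 ± 19.9 CPM (log2 fold change 1.63, adjusted p = 0.126), the largest ratio of NP+ over NP- among the lysosomal genes named here. Genes that sort enzymes by mannose 6-phosphate, the tag that sends hydrolases to lysosomes, had 5 of 13 higher and 2 lower (median 0.38). Ap1g1, a subunit of the AP-1 adaptor, averaged 99.4 ± 16.7 against 64.7 ± 3.85 CPM, while Igf2r, a receptor for that tag, stood at 23.0, 25.4 and 27.2 CPM in NP+ against 33.7, 37.2 and 45.2 in NP- (log2 fold change -0.62, adjusted p = 0.154). Tfeb relatives and mTORC1 regulators had 2 of 19 higher and 1 lower (median 0.15), the 2 being Rraga, at 92.2 ± 7.75 against 60.7 ± 10.5 CPM, and Rptor, at 30.3 ± 3.59 against 17.0 ± 5.67 CPM.

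Further membrane proteins, channels and transporters had 3 of 29 higher and 5 lower (median 0.10), shares near those of all tested genes (8.01% and 15.4%). With the replicate block 3 were higher and 2 lower, Tpcn1 no longer among them. The sialomucin gene Cd164 averaged 290.3 ± 22.5 against 198 ± 31.97 CPM, and the iron transporter gene Slc11a2 51.8 ± 5.30 against 34.4 ± 7.98 CPM. Tpcn1, which encodes another cation channel of endosomes and lysosomes, averaged 12.2 ± 0.532 against 18.03 ± 0.501 CPM, opposite in order to Mcoln1. Cathepsins outside the 32 had 0 higher and 2 lower of 6 tested (median -0.14). Ctsk, a collagen-degrading cathepsin typical of osteoclasts and fibroblasts, stood at 2.58, 1.42 and 1.48 CPM in NP+ compared with 38.0, 8.61 and 10.9 in NP- (log2 fold change -3.39, adjusted p = 0.0887), and was highest in the library with 3839 CPM of fibroblast markers. Cystatins and other inhibitors of lysosomal proteases gave 0 of 5 tested in either direction (median -0.30), and the most abundant, Cst3, averaged 293 ± 32.4 against 361 ± 91.0 CPM.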

How the data were processed

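The assay was bulk RNA sequencing of 3 NP+ and 3 NP- endothelial cell libraries. Per the labels' protocols, cDNA was made with SMART-Seq v4, a full-length kit, and read in pairs of 150 bp. The submitters' processing notes name build GRCm38 and the tools Trimmomatic 0.036, STAR 2.5.2b, featureCounts (Subread 1.5.2) and DESeq2. Strand settings and the annotation release are not given in the sources here. The authors deposited 1 whole-number count per gene and library. Their deposited table adds a signal for each library: counts over a library-specific size factor. It also holds log2 fold changes, deposited as NP- over NP+, and the authors' p-values. Its log2 values were reversed in sign, since 99.93% matched the ratio of NP- to NP+ means. All 156426 deposited signal values gave whole reads within 0.01 reads (100%), equal to the counts. A fit of those reads over 23413 genes, added after seeing the data, called 3 genes higher and 4 lower. At an unadjusted p under 0.05 it left 8 members higher (8.11% of all genes), without Tfeb and Atp6v1h.

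The main test was edgeR 4.0.16 (quasi-likelihood, TMM scaling, filterByExpr with a minimum count of 10) in R 4.3.3, on all 6 libraries without a block, with Benjamini-Hochberg adjustment over 23989 genes. An SE is the log2 fold change divided by the square root of F. CPM are TMM-scaled, and CPM per kb divide by the length in the count files. Alternatives were the tumour as a replicate block, DESeq2 1.42.0, limma-voom (limma 3.58.1), other scalings and filters, and each library or tumour left out. Percent of the members' summed counts was added after seeing the data. The tumour number pairs the libraries, per the labels, and same-tumour deviations from the group means correlated at 0.27, 0.21 and 0.04.

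The 32 members and all lists were chosen with earlier results of these data known. Every library's value was given for members with an unadjusted p under 0.05 with or without the block, or with groups that do not overlap, for the 3 highest per kilobase, and for Tfeb, Mcoln1, Lamp1 and Lamp2. From each further list up to 4 genes with at least 5 CPM on average were eligible, by smallest p. The values of 1 gene that this rule names are not reported here. Ctsh and Ctsc were given in full after their values were seen. The test was tried on simulated counts with 200 changed genes. Reads carry no molecular identifiers. Promoter windows are RefSeq's. Asah1, Atp6v1h, Ctsb, Ctsh and Npc1 had no entry in that table. Coordinates come from the count files, and 27 of 32 spans equal those of GENCODE release M21.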

Additional observations from a re-analysis of the deposited data

How the results depend on the processing

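Results were recomputed under 18 alternatives, and of the 576 values of single genes that these gave, 533 kept their direction and their side of the adjusted threshold. No cause of the differences below was tested. DESeq2 called 1 member, 949 genes higher and 2353 lower, and gave a members' median log2 fold change of 0.38 and 0.018 for Npc1. RLE scaling also gave a median of 0.38 and 0.018 for Npc1. Without a filter, 1 member passed the adjusted threshold (Mcoln1) and 1 was lower at an unadjusted p under 0.05 (Ctsh, where 12.2% of all genes were lower). In that fit 525 genes were called higher and 686 lower, the median was 0.50, and Npc1 gave 0.15. Limma-voom called 12 genes higher. The paired fit, with the replicate block, left 4 members higher at an unadjusted p under 0.05 and called 13 genes lower.

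Upper-quartile scaling, total counts and the filter of at least 5 CPM in 3 libraries each left 1 member higher and 1 lower at an unadjusted p under 0.05. The shares of all genes were 3.27% higher and 19.6% lower with upper-quartile scaling, 2.54% and 21% with total counts, and 6.44% and 8.75% with the filter. With upper-quartile scaling, 18 genes were called lower, the median was 0.081, and values were -0.22 for Laptm4a, -0.14 for Ctsz, -0.19 for Gla, -0.020 for Man2b1, -0.064 for Npc2 and -0.090 for Asah1. With total counts, 9 genes were called lower, the median was 0.036, the summed ratio was 0.998, and values were -0.0039 for Scarb2, -0.27 for Laptm4a, -0.21 for Ctsz, -0.24 for Gla, -0.062 for Man2b1, -0.12 for Npc2, -0.028 for Psap and -0.14 for Asah1. With the 5 CPM filter, 18 genes were called higher and 87 lower, the median was 0.064, and values were -0.24 for Laptm4a, -0.18 for Ctsz, -0.21 for Gla, -0.035 for Man2b1, -0.090 for Npc2, -0.00057 for Psap and -0.11 for Asah1.

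With a library or tumour left out, genes called higher ranged from 0 to 968 and lower from 0 to 1352, and members passing the adjusted threshold from 0 to 1. Members at an unadjusted p under 0.05 ranged from 1 to 14 higher and from 0 to 2 lower. The shares of all genes ranged from 3.89 to 12.3% higher and from 7.71 to 22.4% lower. A count of 1 higher came without the NP+ library of MET-106 (3.91% of all genes), without that of MET-108 (3.89%), or without both libraries of MET-108 (4.31%). The median ranged from 0.28 to 0.52 and the summed ratio from 1.16 to 1.26. Log2 fold changes ranged from -0.47 to 0.38 for Cd63, -1.62 to 0.39 for Ctsc, -1.48 to 0.29 for Ctsh, -0.10 to 0.38 for Ctsz, -0.10 to 0.41 for Gla, -0.027 to 0.28 for Laptm4a and -0.10 to 0.14 for Npc1. With 3 libraries a group, an exact permutation test could not go below p = 0.1, so none was used for single genes.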
